A study of Mus musculus with 4 samples.

Results

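The genes described here encode complement and coagulation factors. They are 42 genes listed by symbol, and 39 of them had at least 1 probe annotated with that symbol alone, out of 19087 genes measured. C3, Cfd and Cpb2 had no such probe and were not analysed here. The 39 were read from 51 probes: 30 genes had 1 probe and 9 had several, which were averaged.
Liver RNA was hybridised to 4 two-colour arrays, where 2 samples carrying different dyes bind one set of probes. On each array a resveratrol-treated Wrn mutant was set against an untreated wild type, all of them labelled as male C57Bl/6 mice aged 9 months. The Wrn mutant has a nonfunctional helicase domain in Wrn, the RecQ helicase whose human counterpart is lost in Werner syndrome, and resveratrol is a polyphenol found in grapes. Each array held another mutant. The wild-type side held 2 animals, animal 2 on arrays 1 and 3 and animal 4 on arrays 2 and 4, and the dyes were swapped on arrays 3 and 4. Genotype and treatment changed together, so their shares cannot be told apart. The sex of the animals was taken from the labels and was not tested.

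Values are log2 ratios as the authors deposited them, and positive values are likely higher in the mutant, judged from how the title and the channels are ordered. The sources used here state neither this direction nor that arrays 3 and 4 were turned to match arrays 1 and 2. Over all probes the correlation was 0.19 between arrays 1 and 2 and 0.21 between arrays 3 and 4, and it ran from -0.18 to 0.11 between arrays of opposite dyes. Over the 39 members, as deposited, it was 0.61 and 0.87 for the same-dye pairs and 0.54 to 0.83 for the opposite-dye pairs. Over the 33 members outside terminal complement it was 0.0019 and 0.48 for the same-dye pairs and -0.43 to 0.35 for the opposite-dye pairs. These correlations run across genes, which are not independent, and arrays 1 and 3, and 2 and 4, share a wild-type animal. With arrays 3 and 4 turned, no gene passed limma's adjusted threshold of 0.05 (1518 genes had an unadjusted p under 0.05). Every "higher" and "lower" below rests on the orientation as deposited. Signal intensities were not used here, so the ratios cannot show whether a liver marker is present, which probes lay above background, or how abundant an mRNA is. In whole liver a change in the number of cells of a type and a change in mRNA per cell cannot be told apart.

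Complement is a set of plasma proteins, most of them made by hepatocytes, that mark and lyse microbes. Its classical, lectin and alternative routes of initiation converge on C3, after which the terminal components C5 to C9 assemble into the membrane attack complex that pierces membranes. The clotting factors are also made largely in the liver and end in the conversion of fibrinogen to fibrin by thrombin, with anticoagulants and fibrinolysis limiting the clot. In mice, activity of the terminal components is known to be higher in males than in females.

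The difference lay in the terminal complement genes. C8a, C9, C6 and C8b had mean ratios of 3.27, 2.28, 2.27 and 1.84, and all 4 arrays were above 0 for each. In folds the means were 9.68 for C8a, 4.85 for C9, 4.83 for C6 and 3.58 for C8b. C8a was the 4th highest of the 19087 genes, and C9, C6 and C8b were 21st, 22nd and 33rd. Each of these values rests on 1 probe. C8a alone passed the test across all genes (limma, Benjamini-Hochberg adjusted p = 0.0468). Thus 1 of 39 members passed, beside 0.246% of all genes in either direction and 0.0786% in the higher direction. The other 33 members had means between -0.34 (F5) and 0.63 (Serpinf2).

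The windows just before the annotated starts of the 4 genes with the highest ratios are shown because these genes stood together on the arrays. They are 250 bases each, 5′ to 3′ on the gene's strand, from RefSeq on GRCm38.p6. The windows lie at chr4:104876399-104876648 on the minus strand for C8a, chr4:104766067-104766316 on the plus strand for C8b, chr15:4726960-4727209 on the plus strand for C6 and chr15:6445096-6445345 on the plus strand for C9. Capitals mark matches, on either strand, to TTCNNNGAA (the STAT5 consensus), GTTAAT (part of the HNF1 site) and TGTTTGC (a form of the FOXA site).
C8a: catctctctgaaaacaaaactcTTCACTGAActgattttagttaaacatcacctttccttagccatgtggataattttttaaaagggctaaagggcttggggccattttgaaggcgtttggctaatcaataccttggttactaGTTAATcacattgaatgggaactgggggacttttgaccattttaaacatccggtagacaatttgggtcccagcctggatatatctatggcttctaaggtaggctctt
C8b: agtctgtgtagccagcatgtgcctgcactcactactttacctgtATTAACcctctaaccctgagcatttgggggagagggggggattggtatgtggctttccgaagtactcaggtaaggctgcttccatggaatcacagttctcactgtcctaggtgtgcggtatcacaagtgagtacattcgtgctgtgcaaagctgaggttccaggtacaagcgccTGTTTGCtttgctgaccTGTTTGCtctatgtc
C6: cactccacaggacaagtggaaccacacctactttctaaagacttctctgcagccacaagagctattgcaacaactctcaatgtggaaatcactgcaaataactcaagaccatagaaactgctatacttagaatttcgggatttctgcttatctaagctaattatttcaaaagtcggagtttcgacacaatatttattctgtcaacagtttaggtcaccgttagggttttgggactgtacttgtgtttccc
C9: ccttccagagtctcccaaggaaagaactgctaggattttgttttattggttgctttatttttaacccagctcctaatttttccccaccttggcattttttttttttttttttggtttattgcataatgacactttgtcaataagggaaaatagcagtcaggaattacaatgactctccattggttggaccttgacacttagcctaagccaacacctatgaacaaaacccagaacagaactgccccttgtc
C8a held TTCACTGAA at 228 to 220 bases before its start and GTTAAT at 107 to 102. C8b held the reverse complement of GTTAAT at 206 to 201 and TGTTTGC at 32 to 26 and again at 15 to 9. C6 and C9 held none of the 3 motifs in these letters, and none of the 4 windows held TGTTTAC (another form of the FOXA site) or TATAAA (the TATA box). Of 32851 windows of the same length in the table, 7.02% held the STAT5 consensus, 6.43% GTTAAT, 4.30% TGTTTGC, 3.17% TGTTTAC and 12.4% TATAAA, and the motifs do not overlap in the windows shown. Of the 33 members with a window in the table, 6 held the STAT5 consensus (C8a, F9, Fga, Fgb, Masp2 and Pros1), 9 held GTTAAT (C4bp, C8a, C8b, Cfp, F13b, Fga, Fgb, Hc and Vtn), 3 held TATAAA (Hc, Klkb1 and Vtn), 2 held TGTTTAC (F11 and Klkb1) and 1 held TGTTTGC (C8b). These counts are of members with a match in any of their windows, while the shares above are of single windows. A match is a description of the letters and not a site shown to be bound.

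C8a encodes the alpha chain of C8, which inserts into the target membrane. Its ratios were 1.74, 3.34, 3.90 and 4.11 on arrays 1 to 4, with a mean of 3.27 ± 1.07 (SD, n = 4 arrays). Array 1 was the lowest and the other arrays lay within 1 log2 unit of each other. The call ended when array 2, 3 or 4 was left out (limma adjusted p = 0.393, 0.180 and 0.314) and when the arrays were scaled to the same spread (0.0771), and it held without array 1 (0.0204).
C8b encodes the beta chain of C8 and lies next to C8a on chromosome 4. Its ratios were 1.30, 1.85, 1.59 and 2.62 on arrays 1 to 4, a mean of 1.84 ± 0.57 (SD, n = 4 arrays; limma adjusted p = 0.0692). It did not pass, and it passed with the spatial trend on the arrays subtracted (limma adjusted p = 0.0474). It also passed with a random block for the shared wild-type animal (limma adjusted p = 0.0198). There the correlation fitted between arrays sharing an animal was negative (-0.37), which narrows the standard error while the mean stays at 1.84. The gamma chain of C8, a lipocalin encoded by C8g on chromosome 2, had 0.18, 0.37, 0.45 and 0.47, a mean of 0.37 ± 0.13 (SD, n = 4 arrays; limma adjusted p = 0.803). With the spatial trend subtracted the mean of C8g was 0.12. The 3 chains of C8 thus ranked the same way on every array, with C8a highest and C8g lowest. The order is of ratios and not of mRNA levels.

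C9 encodes the component that polymerises into the pore. Its ratios were 1.05, 1.85, 3.06 and 3.16 on arrays 1 to 4, a mean of 2.28 ± 1.01 (SD, n = 4 arrays; limma adjusted p = 0.108). Arrays 1 and 2, with the mutant in Cy5, averaged 1.45 and arrays 3 and 4, with the mutant in Cy3, averaged 3.11, the widest dye gap among the members. C9 passed in the fit with a dye coefficient (limma adjusted p = 0.0356), and the dye coefficient itself had an unadjusted p of 0.00871, beside 8.82% of all genes with such a p under 0.05 and none past an adjusted 0.05.
C6 encodes a component that joins the complex after C5b. Its ratios were 0.81, 2.79, 3.82 and 1.67 on arrays 1 to 4, a mean of 2.27 ± 1.31 (SD, n = 4 arrays; limma adjusted p = 0.215). All arrays were above 0, and arrays 1 and 4 were the low ones. Hc, which encodes C5, the component whose cleavage starts the terminal pathway, had -0.04, 0.65, 0.96 and 1.15, a mean of 0.68 ± 0.53 (SD, n = 4 arrays; limma adjusted p = 0.670). Array 1 was at about 0 for Hc and the other arrays were above it. C7, which sits 2 protein-coding genes from C6 on chromosome 15, was not analysed here.

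As a group the 6 terminal genes averaged 0.84, 1.81, 2.30 and 2.20 on arrays 1 to 4, or 1.79 ± 0.67 (SD, n = 4 arrays). All 6 were lowest on array 1, where 29.5% of all genes had their lowest value. The group averaged 1.32 on arrays 1 and 2 alone and 2.25 on arrays 3 and 4 alone, a split looked at after the data had been seen. The median of the 6 means was 2.06, against 0.15 over the other 33 members and -0.0046 over all genes. Of the 6, 5 were above 0 on all 4 arrays (all but Hc), against 5 of the other 33 members and 7.69% of all genes. Because the members were chosen with earlier results known, the group has no p of its own.

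**Figure D1:**
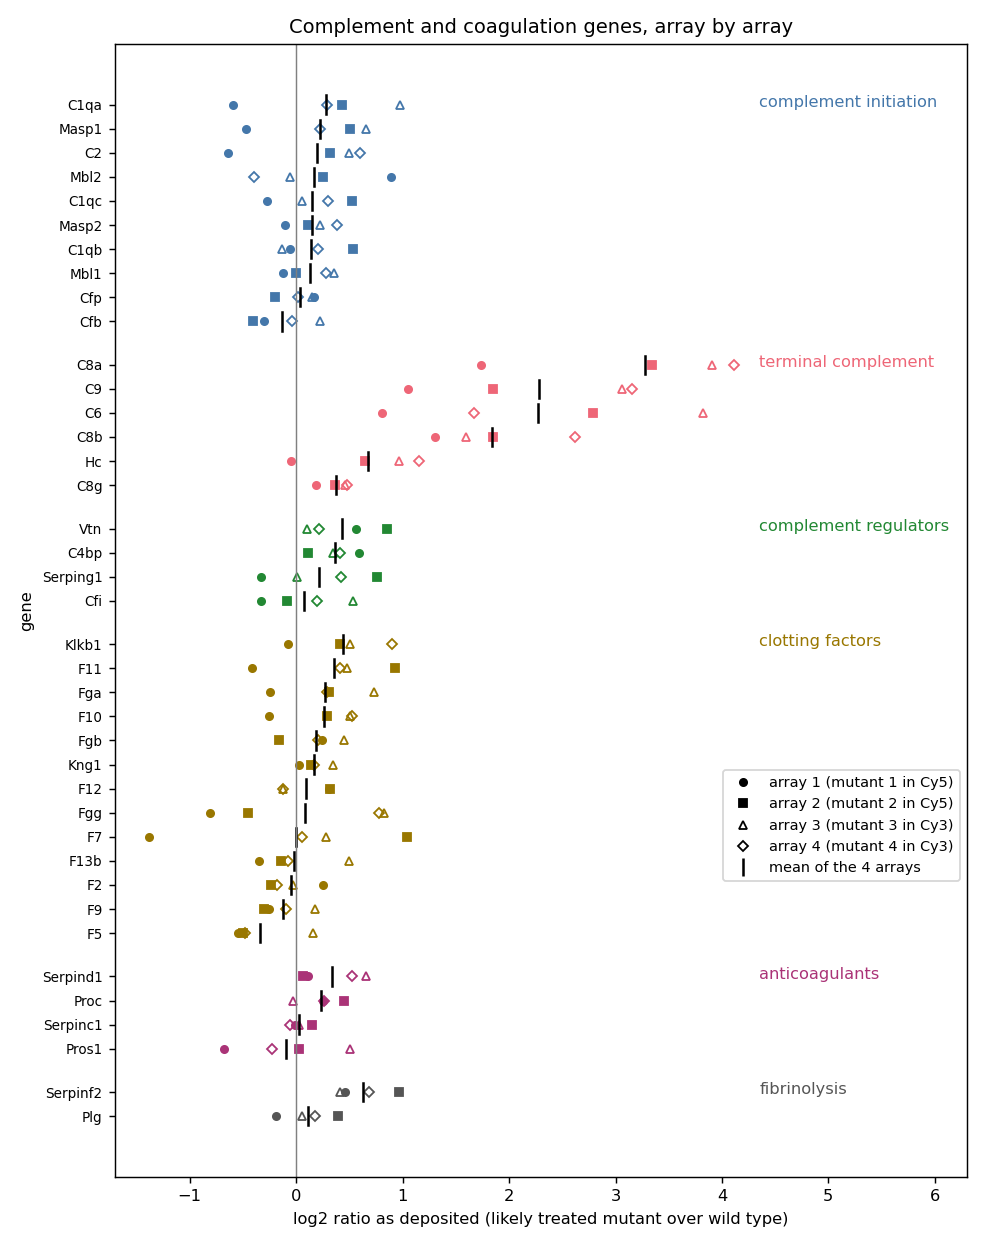
Log2 ratio (horizontal axis) of each of the 39 measured genes (rows, grouped by role and ordered by mean). Filled symbols are arrays 1 and 2, open symbols arrays 3 and 4, and the bar is the mean of the 4 arrays. C8a, C9, C6 and C8b lie right of 0 on all arrays, with means from 1.84 to 3.27, while the means outside terminal complement run from -0.34 to 0.63.

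Position on the chromosome was also read for the 4 genes, in the order of protein-coding genes of the RefSeq table. Beside the C8b and C8a pair lay Dab1 at 0.29 and Fyb2 at 0.51 (mean log2 ratios, limma adjusted p = 0.912 and 0.762). The neighbours of C6 were Plcxd3 at -0.09 and Mroh2b at -0.24, and those of C9 were Dab2 at -0.01 and Fyb at -0.27. No measured neighbour other than C8a and C8b themselves came near the ratio of the gene it flanks. Beside Hc on chromosome 2 lay AI182371, at 0.36, 0.80, 1.23 and 1.87 on arrays 1 to 4 (limma adjusted p = 0.386), above 0 on all arrays and higher than Hc on each. These neighbours were looked up after the values had been seen.

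**Figure D2:**
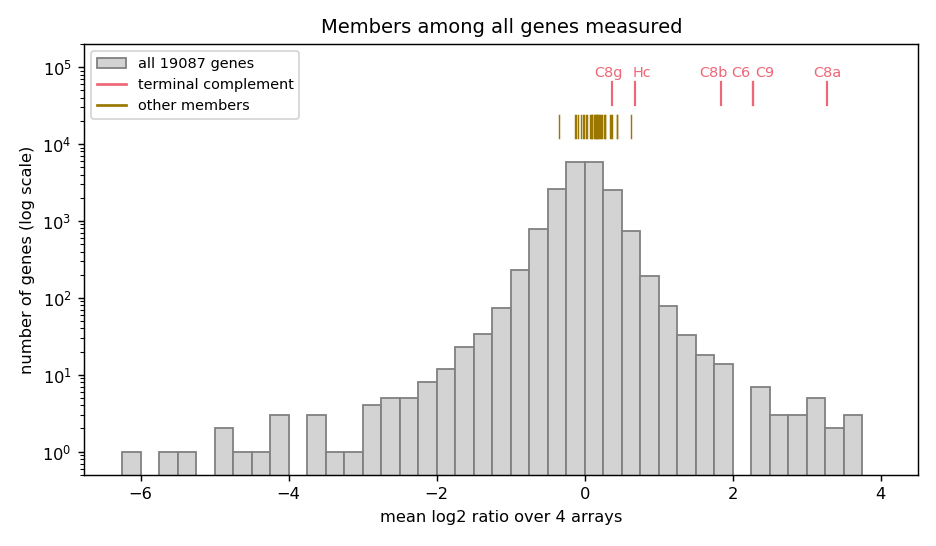
Histogram of the mean log2 ratio over 4 arrays for all 19087 genes (grey, number of genes on a log scale), with a tick for each member above it. C8a, C9, C6 and C8b stand in the upper tail, where 166 genes (0.87%) exceed 1, and the 33 members of other roles lie in the bulk between -0.34 and 0.63.

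The measured members of complement initiation showed no such difference. The genes C1s1, C1ra and C1rb are not members and are given further below. Of 10 measured genes none passed in either direction (limma; none of the 10 had an unadjusted p under 0.05, beside 6.64% of all genes), and their means ran from -0.13 (Cfb) to 0.28 (C1qa). With 0.246% of all genes past the threshold, a count of none is the usual outcome for lists this small. The same 2 shares, 0.246% and 6.64%, stand beside the counts of each group and list below. The group averaged -0.15, 0.21, 0.29 and 0.18 on arrays 1 to 4, and it was below 0 on array 1 alone. The 3 chains of C1q, the recognition molecule of the classical route, come from macrophages more than from hepatocytes. C1qa had -0.59, 0.43, 0.98 and 0.29 on arrays 1 to 4, a mean of 0.28 ± 0.65. C1qb had -0.06, 0.54, -0.13 and 0.20, a mean of 0.14 ± 0.30, and C1qc had -0.27, 0.53, 0.06 and 0.30, a mean of 0.15 ± 0.34 (SD, n = 4 arrays). Each chain lay on both sides of 0, and its mean was smaller than its SD. Of 12 listed markers of Kupffer cells and other macrophages, 10 were measured and none passed (limma; 1 had an unadjusted p under 0.05), with a median of 0.15. They ran from -0.49 for Vsig4, a complement receptor of these cells that stood at -0.22 without array 1, to 0.44 for Cd5l, a secreted macrophage protein.
Masp1 encodes a protease of the lectin route. It had -0.48, 0.50, 0.66 and 0.23 on arrays 1 to 4, a mean of 0.23 ± 0.50 (SD, n = 4 arrays), and the means of its 4 probes disagreed in sign, from -0.52 to 1.13. The means of the remaining initiation genes were 0.19 for C2, the classical and lectin route protease, 0.17 for Mbl2 and 0.13 for Mbl1, the mannose-binding lectins, and 0.15 for the protease gene Masp2. In the alternative route they were 0.03 for properdin (Cfp) and -0.13 for factor B (Cfb). Mbl1 was higher on arrays 3 and 4 than on arrays 1 and 2 and Mbl2 was lower there. Probes of related genes can share signal, which was not tested for this pair.

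Complement regulators lay below terminal complement, with a group mean of 0.27 ± 0.12 (SD, n = 4 arrays) that was above 0 on each array. None of 4 passed (limma; 0 at an unadjusted p under 0.05). Vtn, which encodes vitronectin, a plasma protein that blocks the forming attack complex, had 0.56, 0.85, 0.11 and 0.21 on arrays 1 to 4, a mean of 0.43 ± 0.34 (SD, n = 4 arrays). C4bp, which encodes a cofactor for the breakdown of C4b, had 0.59, 0.11, 0.35 and 0.41, a mean of 0.37 ± 0.20, averaged over 2 probes that ran differently over the arrays. One probe of C4bp had 0.08, 0.22, 0.46 and 0.81 and the other 1.09, 0.0067, 0.23 and 0.02. The gene means of Vtn and C4bp were above 0 on all 4 arrays. Serping1, the C1 inhibitor, and Cfi, the protease that inactivates C3b, had means of 0.21 and 0.08 and lay on both sides of 0.

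None of the 13 clotting factor genes passed (limma; 0 at an unadjusted p under 0.05), and their means ran from -0.34 for F5 to 0.44 for Klkb1. The median was 0.09, and 8 means were above 0 and 5 below, beside 49.3% of all genes above 0. Klkb1, the precursor of plasma kallikrein in the contact route, had -0.08, 0.41, 0.51 and 0.90 on arrays 1 to 4, a mean of 0.44 ± 0.40 (SD, n = 4 arrays). F11, the contact-route protease gene next in size, had -0.41, 0.93, 0.47 and 0.41, a mean of 0.35 ± 0.56. Array 1 was the low one for both.
F5, the cofactor for factor X, had -0.54, -0.50, 0.15 and -0.48, a mean of -0.34 ± 0.33 (SD, n = 4 arrays), with array 3 alone above 0. Among the other proteases and cofactors the means were -0.05 for prothrombin (F2), -0.12 for F9, 0.26 for F10 and 0.09 for F12. F7, which starts clotting together with tissue factor, averaged -0.0020 ± 1.01 with extremes of -1.38 (array 1) and 1.04 (array 2), the widest spread among the clotting genes. Kng1, which encodes kininogen, was above 0 on all arrays at a mean of 0.17, and F13b, the carrier subunit of the fibrin cross-linking enzyme, averaged -0.02.
The 3 chains of fibrinogen had means of 0.27 for Fga, 0.18 for Fgb and 0.09 for Fgg. Fgg is given in full because its arrays were seen to split by dye: it had -0.81 and -0.45 on arrays 1 and 2 and 0.83 and 0.78 on arrays 3 and 4. Its mean of 0.09 ± 0.84 (SD, n = 4 arrays) therefore averages opposite values, and its dye coefficient had an unadjusted p of 0.00844 (limma). C9 and Fgg were the 2 members with such a p under 0.05.

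Of the anticoagulants none of 4 passed (limma; 0 at an unadjusted p under 0.05). Serpind1, heparin cofactor II, had 0.11, 0.06, 0.66 and 0.53 on arrays 1 to 4, a mean of 0.34 ± 0.30, and Proc, protein C, had 0.25, 0.45, -0.03 and 0.26, a mean of 0.23 ± 0.20 (SD, n = 4 arrays). Serpind1 was above 0 on all arrays and Proc on all but array 3. Pros1, the cofactor of protein C, averaged -0.09, and antithrombin (Serpinc1) averaged 0.02 ± 0.09.
In fibrinolysis 2 genes were measured. Serpinf2, alpha-2-antiplasmin, the inhibitor of plasmin, had 0.45, 0.97, 0.42 and 0.68 on arrays 1 to 4, a mean of 0.63 ± 0.25 (SD, n = 4 arrays). It was above 0 on all arrays and had the highest mean outside terminal complement, but did not pass (limma adjusted p = 0.530). Plg, the precursor of plasmin itself, had -0.19, 0.39, 0.06 and 0.17, a mean of 0.11 ± 0.24, on both sides of 0.

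Terminal complement exceeded every other role group on every array. Its mean minus that of complement initiation was 0.99, 1.60, 2.00 and 2.01 on arrays 1 to 4. Against clotting factors the difference was 1.11, 1.68, 1.93 and 2.02, and against the fibrinolysis genes it was 0.71, 1.13, 2.06 and 1.77. The smallest of all such differences was that on array 1 against fibrinolysis. Without the terminal genes the other 33 members averaged 0.15 ± 0.20 (SD, n = 4 arrays), with array 1 at -0.14 and arrays 2 to 4 between 0.21 and 0.31. Of the 39 members 32 had a mean above 0 and 33 a mean within 0.5 of 0, beside 49.3% and 88% of all genes. Of the same 39, 10 were above 0 on all 4 arrays (25.6%) and none below 0 on all 4, beside 7.69% and 8.16% of all genes.

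**Figure D3:**
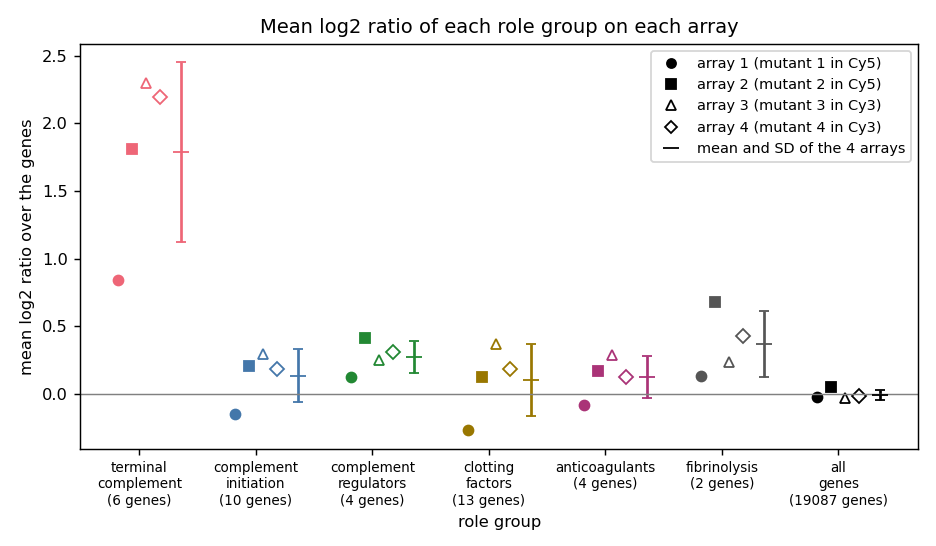
Mean log2 ratio over the genes of each role group (vertical axis) on each array (symbols), with the mean and SD of the 4 arrays beside them and all 19087 genes at the right. Terminal complement stands between 0.84 and 2.30, above each other group on every array, and the other groups lie between -0.27 and 0.68.

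Other genes of the same systems were read from further lists. Of 24 measured complement genes that are not members none passed (limma; 4 had an unadjusted p under 0.05), and their median was -0.01. The highest were C1rb at 0.86 ± 0.72 and C1s1, which encodes the C1s protease, at 0.81 ± 0.08 (SD, n = 4 arrays). C1s1 had 0.83, 0.84, 0.69 and 0.88 on arrays 1 to 4, all above 0, and its limma adjusted p was 0.227. The small spread of C1s1 comes from averaging 2 probes that ran opposite ways, 1 at 0.31, 0.94, 1.18 and 1.09 and the other at 1.35, 0.75, 0.20 and 0.68. C1ra, the partner protease next to it on chromosome 6 and named after its values were seen, had 0.56, 0.66, 0.56 and 0.94. C1ra and C1rb are near copies of each other, so their probes can share signal. The lowest were Colec11, a collectin, at -0.53 and Cd59a, whose product blocks the insertion of C9, at -0.50. Without array 4, where 1 of its 2 probes read -3.47, Cd59a averaged -0.09.
Of 23 further clotting and fibrinolysis genes none passed (limma; 2 had an unadjusted p under 0.05), with a median of 0.04. Proz, protein Z, stood at 0.74 and the thrombin receptor gene F2r at 0.71, while Kng2, a kininogen gene related to Kng1, stood at -0.68 (-1.06 to -0.40 with 1 array left out) and Mcfd2, which helps to export factors V and VIII from the cell, at -0.40. Of 5 genes around the vitamin K cycle, which carboxylates prothrombin and factors VII, IX and X, none passed (limma; 1 had an unadjusted p under 0.05). Ggcx, the carboxylase itself, had 0.80, 0.85, 0.68 and 0.76 on arrays 1 to 4 (limma adjusted p = 0.258), Vkorc1 averaged 0.15, Vkorc1l1 -0.32 and Nqo1 -0.39 (-0.76 to -0.065 with 1 array left out).

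Genes whose liver expression depends on sex moved alongside the terminal components, although every animal is labelled male. Xist, the RNA of X inactivation, was among the 47 genes past the threshold (limma) and is named after the calls were seen. Whether the sex labels hold on both sides was not tested. Of 12 measured male-predominant genes, a list that does not hold any member, 3 rose, none fell and 9 did not pass, and those that rose were Elovl3 at 3.65, the glutathione transferase gene Gstp1 at 3.62 and Nudt7 at 2.92. Their list averaged 1.09, 2.25, 2.96 and 2.87 on arrays 1 to 4, in the same order of arrays as terminal complement. That order was not particular to these lists, as clotting factors shared it, at -0.27, 0.13, 0.37 and 0.18. Of 16 measured female-predominant genes 4 fell, none rose and 12 did not pass: Cyp17a1, A1bg, Cyp2b13 and Sult3a1, at means from -4.94 to -3.58. These lists were already known to differ in these data. Their part in the terminal complement ratios was not tested.
Acute phase reactants are plasma proteins of inflammation that the liver makes through IL-6 and STAT3. Their list, which also holds the IL-6 receptor gene Il6ra, averaged below 0. None of 23 passed (limma; 8 had an unadjusted p under 0.05, beside 6.64% of all genes). The list averaged -0.56, -0.37, -0.18 and -0.12 on arrays 1 to 4, below 0 on each and, as for terminal complement, lowest on array 1. Saa4 stood at 0.92 and Orm1 at 0.56 (0.32 to 0.82 with 1 array left out), against Hamp2 at -1.92 and the IL-6 receptor gene Il6ra at -1.35. Of 17 liver transcription factors none passed (limma; 5 had an unadjusted p under 0.05), with Bcl6, a repressor known to bind STAT5 sites in male mouse liver, at 1.44 (0.91 without array 3) and Cebpa at 0.38, against Foxa3 at -1.54 and the xenobiotic receptor gene Nr1i3 at -1.42.
Hepatocyte markers, from the cells that make most of these proteins, had a median of 0.01 over 11 measured genes, with none past the threshold (limma; 2 had an unadjusted p under 0.05). Their list averaged 0.23, 0.31, 0.02 and -0.12 on arrays 1 to 4. Platelet and megakaryocyte markers had a median of 0.19 over 6 genes, none of which passed (limma; 0 at an unadjusted p under 0.05). Among markers of other cells, 1 of 5 measured red blood cell genes rose (Alas2, the first enzyme of haem synthesis in red cells, at 2.45), and that list was above 0 on every array, from 0.68 to 1.16. Of 9 adipocyte genes 2 fell, the lipid droplet genes Cidec at -2.83 and Plin4 at -2.02, and the list averaged between -0.73 and -0.40. The median of the 9 means was -0.09, nearer 0 than the averages, with 2 means above 0 (Plin1 highest at 0.84) and 7 below. No gene of the endothelial, stellate, bile duct, neutrophil and lymphocyte lists passed (limma; 4 had an unadjusted p under 0.05), with list medians from -0.29 to 0.22. The part of these cells in the members' ratios was not tested.

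**Figure D4:**
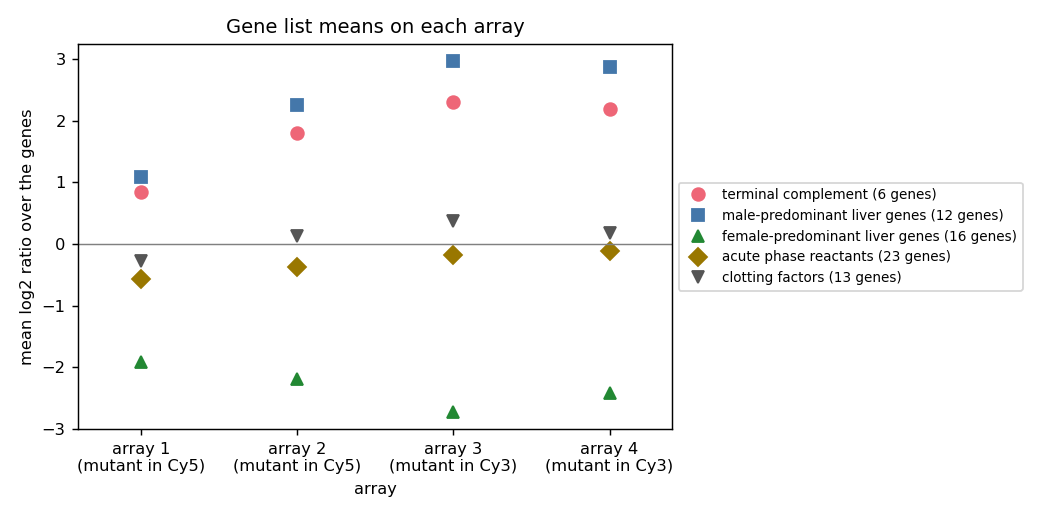
Mean log2 ratio over the genes of 5 lists (vertical axis) on arrays 1 to 4 (horizontal axis). Terminal complement runs from 0.84 on array 1 to 2.30 on array 3 and the male-predominant list from 1.09 to 2.96 on the same arrays, while clotting factors and acute phase reactants stay between -0.56 and 0.37 and the female-predominant list between -2.72 and -1.92.

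The 4 highest terminal genes kept ratios above 0 whichever array was left out, from 2.99 to 3.79 for C8a, 1.99 to 2.69 for C9, 1.75 to 2.76 for C6 and 1.58 to 2.02 for C8b. The orientation of arrays 3 and 4 changed that. With those arrays turned the means were -0.73 for C8a, -0.83 for C9, -0.47 for C6 and -0.27 for C8b, none of them past the threshold (limma). The members past the threshold were C8a and C8b with the spatial trend subtracted (0.639% of all genes passed), C8a and C9 with a dye coefficient (0.231%), and C6, C8a, C8b and C9 with the random block (1.02%). The block left the means as they were, and its negative correlation (-0.37) narrows the standard errors. C8a alone passed with the median over probes (0.241%) and without array 1 (0.178%). No member passed after scaling (0.0838% of all genes), without array 3 (0.0472%) or when each probe was tested by itself (0.104% of all probes), with 6, 6 and 7 members at an unadjusted p under 0.05. No gene of the 19087 passed once array 2 or array 4 was dropped (limma; 4 members in each case had an unadjusted p under 0.05).

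**Figure D5:**
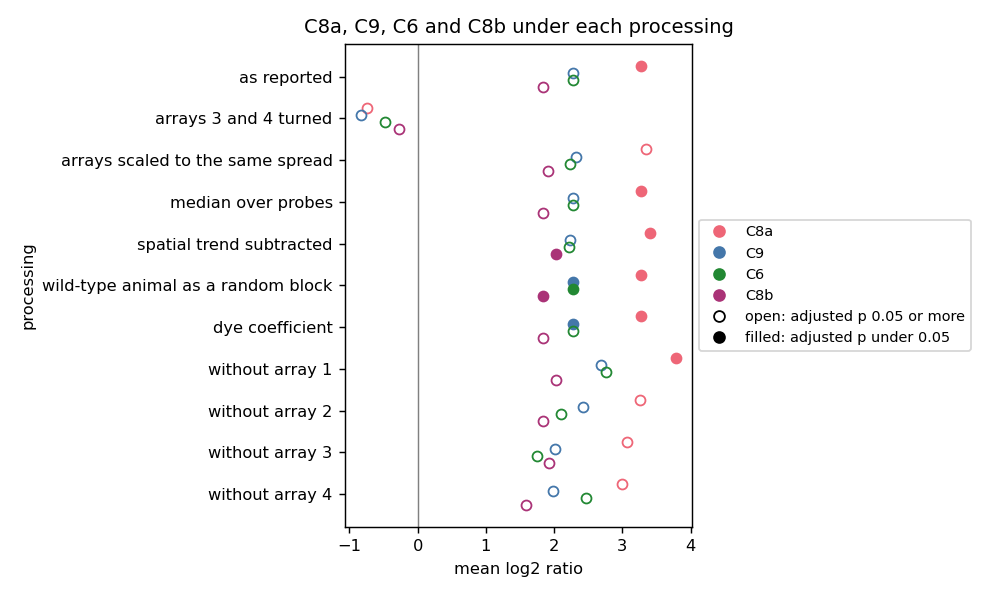
Mean log2 ratio (horizontal axis) of C8a, C9, C6 and C8b under each processing (rows), filled where limma's adjusted p was under 0.05. Ratios lie between 1.58 and 3.79 in every row but that with arrays 3 and 4 turned, where they lie between -0.83 and -0.27. All 4 genes are filled only with a random block for the shared wild-type animal, whose fitted correlation was negative (-0.37).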

How the data were processed

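Liver RNA of treated mutants and untreated wild types was compared on 4 two-colour arrays. The deposited values are log2 ratios, 1 for each of 43379 probes per array. No label spells out the base of the logarithm; limma, named per the submitters' processing notes, reports log2. For background correction, normalization, filters and direction the sources used here give nothing. Extremes were -8.54 and 7.54, the array medians lay between -0.0083 and 0.0121 and 0 values were missing. The number of arrays limits the precision.

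Of the probes 33653 had 1 gene symbol in the platform annotation, 56 had several and 9670 had none; all 51 member probes matched the reference gene table by Entrez ID. Ratios of a gene's probes were averaged, and each gene was tested against 0 with limma 3.58.1 in R 4.3.3 (intercept only, eBayes, two-sided, Benjamini-Hochberg over 19087 genes, threshold 0.05). The fit was tested on simulated data. Arrays that share a wild-type animal are not independent, and p-values measure the spread between these arrays. The alternatives were arrays 3 and 4 turned, arrays scaled to the same spread, the median over probes, a running median over 11 x 11 spots of an 85-column layout subtracted, a random block for the shared wild-type animal, a dye coefficient, each array left out and each probe tested by itself; arrays of 1 dye orientation alone, and genes outside the members without each array, were added after the data had been seen.

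The members, role groups and lists were chosen with earlier results of these data known. An earlier look at the same arrays had a rule that called for turning arrays 3 and 4 and departed from it; the values are used as deposited here. Values on every array are given for members past the threshold, members of 1 sign on all arrays with a mean of at least 0.5 in size, the 2 members of each role with the largest means in size, and partner chains of these. Hc, F5 and Fgg did not meet this rule and are also given on every array. From other lists, genes past the threshold and at most the 2 highest and 2 lowest are named, with exceptions said to be chosen after their values were seen. Set tests were not run.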

Additional observations from a re-analysis of the deposited data

Results flagged for a closer look

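A single array lay apart, with its gap to the nearest array taking most of the span of all 4, in 3 of 60 genes and 2 of 24 lists examined. Chance alone gives about 1 in 20. Among the members F5 stood at 0.15 on array 3, with the other arrays between -0.54 and -0.48. Outside them, C1rb stood at -0.22 on array 1 with the others between 1.11 and 1.32, and Colec11 at -0.26 on array 2 with the others between -0.64 and -0.61. The endothelial cell list averaged -0.43 on array 1, with the others between -0.12 and -0.065, and the red blood cell list averaged 0.68 on array 1, with the others between 1.08 and 1.16.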

How the results depend on the processing

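The count of members past limma's adjusted threshold was 1 as reported. It was 0 with arrays 3 and 4 turned (1 at an unadjusted p under 0.05), 0 with the arrays scaled to the same spread (6) and 0 when each probe was tested by itself (7). It was 2 with the spatial trend subtracted, 2 with a dye coefficient and 4 with a random block for the shared wild-type animal, whose consensus correlation was -0.37. Leaving out an array gave 0 to 1 member. Over all genes the count was 47 as reported, 0 with arrays 3 and 4 turned (1518 at an unadjusted p under 0.05), 16 with scaling, 122 with the trend subtracted, 194 with the block and 0 to 34 without an array. Leaving out an array also lowers the degrees of freedom. With arrays 3 and 4 turned the means were -0.73 for C8a, -0.83 for C9, -0.47 for C6, -0.27 for C8b, -0.38 for Hc and -0.094 for C8g, and the role groups averaged -0.46 for terminal complement, -0.11 for complement initiation, -0.0068 for complement regulators, -0.17 for clotting factors, -0.081 for anticoagulants and 0.037 for fibrinolysis. Under scaling, probe medians, trend subtraction and each array left out, the 6 role group means moved by less than their SD over arrays. Turning arrays 3 and 4 by construction changes the sign of those arrays. The block kept the means, and its negative correlation by construction narrows their standard errors. The cause of the other changes was not tested. No paired analysis was possible because the arrays form 1 group of ratios.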
